A study of Mus musculus with 11 samples.

Results

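Perineuronal nets are lattices of extracellular matrix around the cell bodies and proximal dendrites of certain neurons, above all the fast-spiking inhibitory neurons that make parvalbumin. A backbone of hyaluronan carries the lecticans, which are chondroitin sulfate proteoglycans. Link proteins clamp each lectican to hyaluronan, and tenascins join the far ends of the lecticans. Nets close around neurons as juvenile plasticity ends, and astrocytes, oligodendrocyte lineage cells and neurons each make part of their components, which also occur in the looser matrix between cells. Here 10 genes were followed, the 4 lecticans Ncan, Bcan, Acan and Vcan, the 4 link proteins Hapln1 to Hapln4, and the tenascins Tnr and Tnc, out of the 36666 genes in the count table. They were picked by family name, but the family was chosen by its measured mutator against control difference in these same mice, so the differences between the groups are given for the 10 genes as a description, with no test.

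RNA was measured in cerebral hemisphere from 11 male C57/Bl6 mice aged 1 year. Of these, 7 were Polg mutators (D257A/D257A), which carry on both alleles a knock-in change that impairs the proofreading of the polymerase of mitochondrial DNA, and 4 were control littermates, namely the WT/WT mice 205, 239 and 246 and the WT/D257A mouse 237. All were bred from heterozygous parents, the change is present in every cell, and the line is a model of premature aging. Gene counts summed to between 28249345 and 121182250 per mouse, and are given as CPM, counts scaled to the size of each library, after TMM normalization, which is a scaling that sets the bulk of genes level between libraries. The mean level of Polg itself was 66.1 ± 3.0 CPM over the 4 controls and 63.9 ± 4.2 CPM over the 7 mutators (± SD), and the counts do not show the changed base. At the level of single genes, the test covered 17983 genes, of which 144 (0.801%) were lower and 79 (0.439%) higher in the mutators at an adjusted p under 0.05 by edgeR's quasi-likelihood test. All 10 net genes passed the filter on low counts.

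Ncan encodes neurocan, a lectican made by neurons and astrocytes and most abundant around birth and in young brain. It is gene ENSMUSG00000002341 on chromosome 8 of mm9, on the minus strand from 72616984 to 72644772. Bcan encodes brevican, the main lectican of adult brain, made by astrocytes and other glia. It is gene ENSMUSG00000004892 on chromosome 3 of mm9, on the minus strand from 87791453 to 87804278. The 250 bases before the start of each are shown because these were the lecticans with the clearest separation between the groups of mice. They are RefSeq sequence of GRCm38.p6, chr8:70120845-70121094 and chr3:88000357-88000606, both on the minus strand, 5′ to 3′, with capitals for the motif matches described next.
Ncan: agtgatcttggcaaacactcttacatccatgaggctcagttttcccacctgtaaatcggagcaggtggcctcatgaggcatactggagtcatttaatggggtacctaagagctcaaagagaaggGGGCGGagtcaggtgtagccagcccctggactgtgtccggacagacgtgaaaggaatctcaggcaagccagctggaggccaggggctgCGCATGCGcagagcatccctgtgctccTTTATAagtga
Bcan: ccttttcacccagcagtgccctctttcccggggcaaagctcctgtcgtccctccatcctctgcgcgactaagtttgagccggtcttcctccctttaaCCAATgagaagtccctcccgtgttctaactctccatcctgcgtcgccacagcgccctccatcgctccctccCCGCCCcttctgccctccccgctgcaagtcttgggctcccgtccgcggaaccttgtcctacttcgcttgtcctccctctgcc
Short motifs were searched on both strands in the 250 bases before the start, and positions are those of the first base of a match. No matches overlap in Ncan or Bcan. The TATA box letters TATAAA lie 11 bases before the start of Ncan, read on the opposite strand, and occur in 12.368% of the 32851 promoters in the table. The GC box letters GGGCGG, found in 32.742% of promoters, lie 126 bases before the start of Ncan and, on the opposite strand, 82 bases before that of Bcan. CGCATGCG, the core of the motif of nuclear respiratory factor 1, lies 38 bases before the start of Ncan and occurs in 1.549% of promoters. That motif was added to the search after the Ncan sequence had been read. Bcan has the CCAAT box letters CCAAT 153 bases before its start, as have 33.85% of promoters somewhere in this window. The cAMP response element TGACGTCA (1.546% of promoters) and the STAT letters TTCNNNGAA (7.02%) are in neither window. Of the other genes with an entry in that table, Acan has 3 GC boxes, of which 2 overlap, and 1 CCAAT box, Vcan 2 and 1, Hapln2 1 CCAAT box, Hapln3 1 TATA box, and Tnc 1 TATA box and 1 GC box in either of its windows, whereas Hapln1 and Tnr have none of these letters. Only Ncan has CGCATGCG among the 9 net genes with an entry. A match is a run of letters and not a bound site.

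Both of these lecticans were lower in the mutators than in the controls, in every mouse. Ncan had 174, 173 and 178 CPM in WT/WT mice 205, 239 and 246 and 203 CPM in the WT/D257A mouse. In the mutators it lay between 126 and 147 CPM, with a median of 137 (n = 7). The highest mutator was thus below the lowest control, and the control that stood farthest off was the heterozygote, on the high side. The log2 fold change of Ncan, mutator over control, was -0.43 (SE 0.053), a level 25.7% lower.

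Bcan had 209, 214 and 219 CPM in the same WT/WT mice and 258 CPM in the WT/D257A mouse. The mutators lay between 164 and 194 CPM, with a median of 184 (n = 7), and did not overlap the controls. Its log2 fold change was -0.31 (SE 0.057), a level 19.1% lower. Ncan and Bcan were the 2 of the 10 genes with an adjusted p under 0.05, both lower, where 0.801% of all genes tested were lower at that threshold, and also the 2 whose groups did not overlap, where 1.42% of all genes tested had every mutator below every control. As the family was chosen on this contrast, nothing is read from those counts. Over the 17 alternatives run, the log2 fold change of Ncan lay between -0.45 and -0.37 and that of Bcan between -0.34 and -0.23. The value nearest to 0 for Bcan came without the WT/D257A mouse, where Bcan was short of the threshold and the count of net genes past it was 1. That count was 3, with Hapln4 in addition, without WT/WT mouse 205, and also with all 11 mice under DESeq2 or with no filter on low counts. As these are bulk samples, fewer cells of a type and less RNA per cell cannot be told apart.

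**Figure D1:**
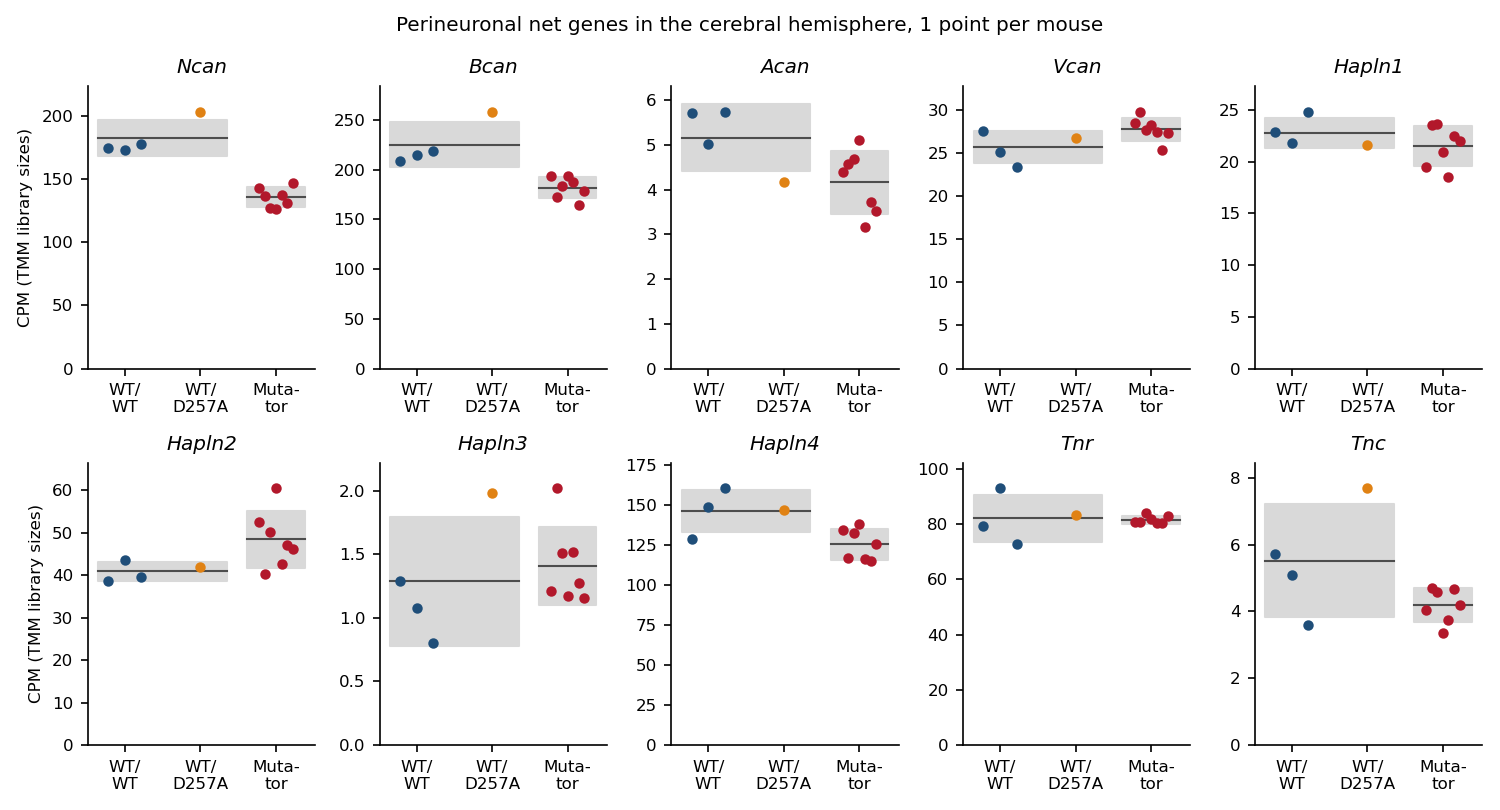
Normalized level (CPM, linear axis from 0) of the 10 net genes in each mouse, with 1 point per mouse, a line at the mean of the 4 controls (WT/WT and WT/D257A together) and of the 7 mutators, and a grey band of 1 SD around it. All 7 mutators sit below all 4 controls for Ncan and Bcan, and the orange WT/D257A mouse is the highest control for both of these, Hapln3 and Tnc.

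The other lecticans did not separate the groups. Acan encodes aggrecan, the lectican most closely tied to the nets themselves. Its values were 5.72, 5.02 and 5.74 CPM in the WT/WT mice, 4.17 CPM in the WT/D257A mouse, and 3.17 to 5.11 CPM with a median of 4.39 in the mutators. The heterozygote lay inside the mutator range, and 6 of 7 mutators lay below the lowest WT/WT mouse. The log2 fold change was -0.31 (SE 0.13), as large as that of Bcan but with a wider standard error, on counts of only 131 to 699 per mouse. Vcan encodes versican, made by oligodendrocyte precursors among other cells. It had 27.6, 25.2 and 23.4 CPM in the WT/WT mice, 26.8 CPM in the WT/D257A mouse and 25.4 to 29.8 CPM with a median of 27.7 in the mutators, a log2 fold change of 0.10 (SE 0.057). For Vcan, 4 of the 7 mutators were above the highest control and none was below the lowest.

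Among the link proteins, the 2 most abundant had log2 fold changes of opposite sign. Hapln4 encodes Bral2, a link protein of neurons that pairs with brevican in nets. It had 129, 149 and 161 CPM in WT/WT mice 205, 239 and 246, 147 CPM in the WT/D257A mouse and 115 to 138 CPM with a median of 125 in the mutators. Of the mutators, 4 lay below the lowest control, which is mouse 205, and the ranges overlapped. Its log2 fold change was -0.22 (SE 0.061), between -0.28 and -0.17 over the 17 alternatives, with the lowest value without mouse 205.

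Hapln2 encodes Bral1, the link protein of the nodes of Ranvier in myelinated axons. It had 38.6, 43.6 and 39.5 CPM in the WT/WT mice and 41.8 CPM in the WT/D257A mouse, against 40.4 to 60.4 CPM with a median of 47.0 in the mutators. Here 5 of 7 mutators were above the highest control, and the log2 fold change was 0.25 (SE 0.086), between 0.19 and 0.28 over the 17 alternatives. Hapln1, the classical cartilage link protein, which neurons with nets also make, had 21.6 to 24.8 CPM in the controls and 18.5 to 23.6 CPM in the mutators (log2 fold change -0.083, SE 0.069). Hapln3 was barely detected, with 0.800 to 1.98 CPM in the controls, 1.16 to 2.02 CPM in the mutators and as few as 22 counts in 1 mouse (log2 fold change 0.11, SE 0.21). Without WT/WT mouse 246 the log2 fold change of Hapln3 was -0.024.

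The tenascins differed from each other in spread. Tnr encodes tenascin-R, which oligodendrocytes and some interneurons make and which crosslinks lecticans in nets. It had 79.5, 93.0 and 72.8 CPM in the WT/WT mice, 83.4 CPM in the WT/D257A mouse and 80.3 to 84.1 CPM with a median of 80.8 in the mutators. All 7 mutators thus lay within the control range, and the log2 fold change was -0.011 (SE 0.053). Without WT/WT mouse 239 it was 0.054. Tnc encodes tenascin-C, mostly a matrix protein of developing and injured tissue. It had 5.72, 5.08 and 3.60 CPM in the WT/WT mice, 7.69 CPM in the WT/D257A mouse and 3.34 to 4.71 CPM with a median of 4.20 in the mutators. Its log2 fold change of -0.41 (SE 0.15) was nearly that of Ncan, but it became -0.22 without the WT/D257A mouse, and the ranges overlapped. The count of net genes with a lower mean level in the mutators was 7 of 10, with a median log2 fold change of -0.15, beside 49.6% of all genes tested and a median of 0.0014.

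**Figure D2:**
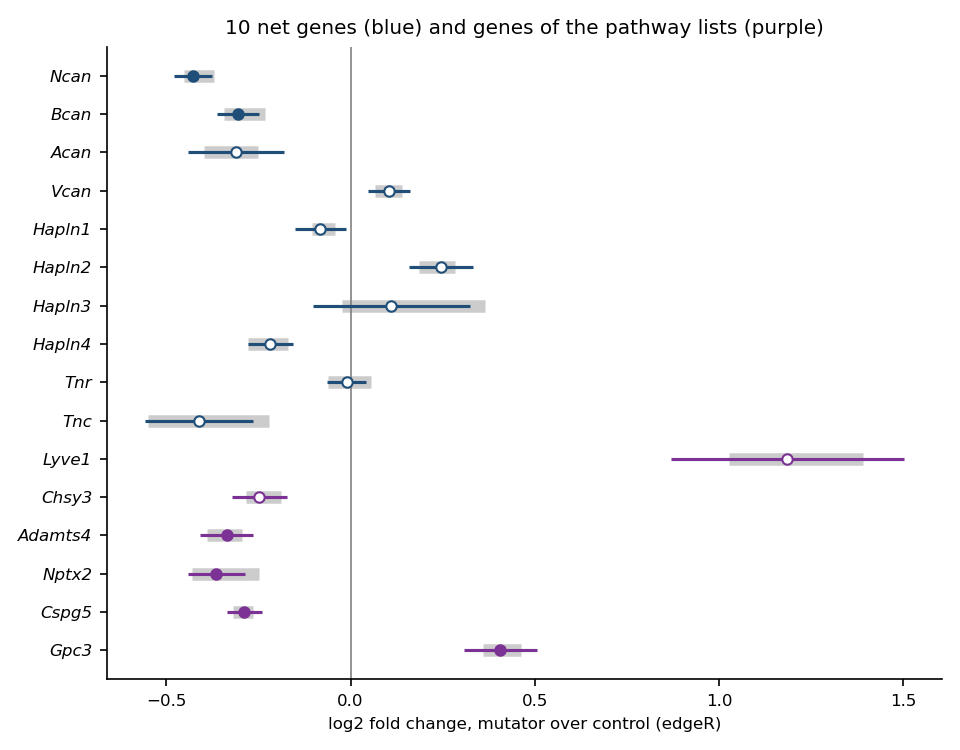
Log2 fold change of the mutators over the controls (edgeR, x axis) for the 10 net genes in blue and the genes named from the pathway lists in purple, with bars of 1 standard error and grey bands for the range over the 17 alternatives. Filled points had an adjusted p under 0.05, among the net genes Ncan at -0.43 and Bcan at -0.31.

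The WT/D257A mouse carries the mutant allele in single dose and was counted as a control. It lay outside the range of the 3 WT/WT mice for 6 of the 10 net genes, and for 57.9% of all genes tested. It was higher for Ncan, Bcan, Hapln3 and Tnc and lower for Acan and Hapln1. Against the 3 WT/WT mice alone, the log2 fold change of Ncan was -0.37 (SE 0.050), that of Bcan -0.23 (SE 0.051) and that of Acan -0.40 (SE 0.14). With 1 heterozygote there is no test of that genotype.

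Levels can be compared between genes only per length, so counts were also expressed as RPKM, per kilobase of exons in the mm9 annotation. In the controls the order was Bcan with 68.9 ± 6.9 RPKM (SD, n = 4), Hapln4 with 40.9 ± 3.7, Ncan with 25.3 ± 2.0, Hapln2 with 17.2 ± 0.95 and Tnr with 16.6 ± 1.7. After these came Hapln1 with 4.51 ± 0.29 RPKM, Vcan with 1.78 ± 0.13, Tnc with 0.735 ± 0.226, Acan with 0.702 ± 0.101 and Hapln3 with 0.389 ± 0.152. From Bcan to Hapln3 the control means differed 177 times, and aggrecan mRNA was near the bottom. Neighbours in this order whose control ranges overlapped were Hapln2 and Tnr, Tnc and Acan, and Acan and Hapln3. In the mutators Hapln2, at 20.4 ± 2.8 RPKM (SD, n = 7), stood above Ncan at 18.8 ± 1.1, whereas Ncan was above Hapln2 in all 4 controls. Within single mutators, Ncan was above Hapln2 in 3 of 7. With the longest annotated transcript as the length, Vcan was 2.07 RPKM and no rank in the controls changed.

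**Figure D3:**
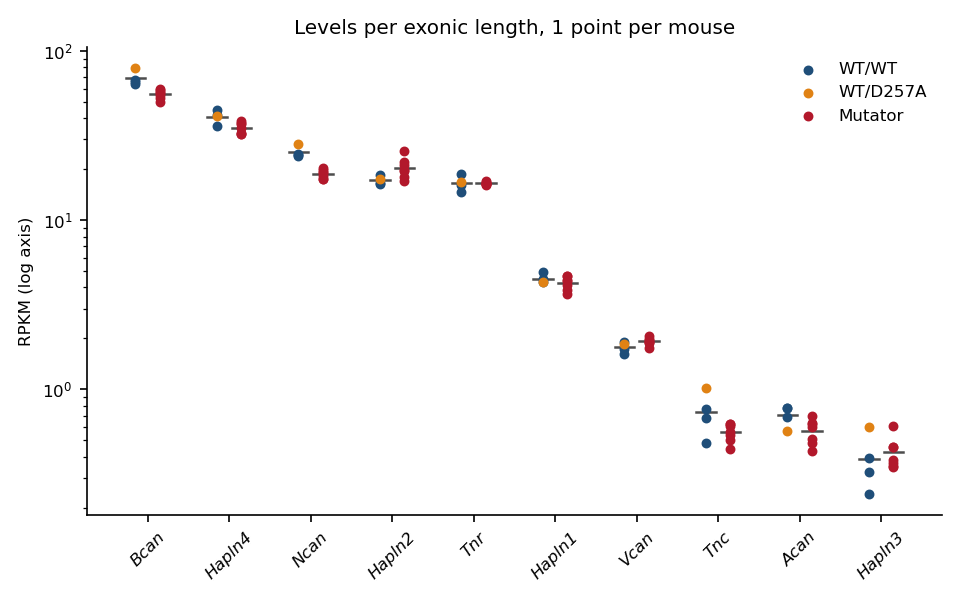
Level per exonic length (RPKM, log axis) of the 10 net genes in the order of their control means, 1 point per mouse with controls on the left and mutators on the right of each gene and a short line at each mean. Bcan is the highest at 68.9 RPKM in the controls and 55.7 in the mutators, and Ncan has rank 3 in the controls and rank 4 in the mutators.

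Each gene's share of its family per length shows the same values in another way, and is again a description. The 4 lecticans summed to 96.7 ± 8.8 RPKM over the 4 controls and 77.0 ± 3.6 RPKM over the 7 mutators (± SD). Bcan made up 71.2% ± 0.68 of this sum in the controls and 72.3% ± 1.5 in the mutators, and Ncan 26.2% ± 0.38 and 24.5% ± 1.5. The share of Vcan was 1.69% to 2.10% in the controls and 2.40% to 2.77% in the mutators, with no overlap. The 4 link proteins summed to 63.0 ± 4.1 RPKM in the controls and 60.2 ± 5.3 in the mutators, means that differ by less than the SD of either group. Within it, Hapln4 took 62.9% to 67.3% in the controls and 56.3% to 59.5% in the mutators, and Hapln2 25.0% to 28.5% and 30.9% to 37.1%. In neither did the groups overlap, whereas the CPM ranges of Vcan, Hapln4 and Hapln2 did. Shares of 1 sum depend on each other, and the lectican sum is mostly Bcan and Ncan, which were lower in the mutators. How often shares separate in other gene families was not examined, so nothing is read from these separations.

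**Figure D4:**
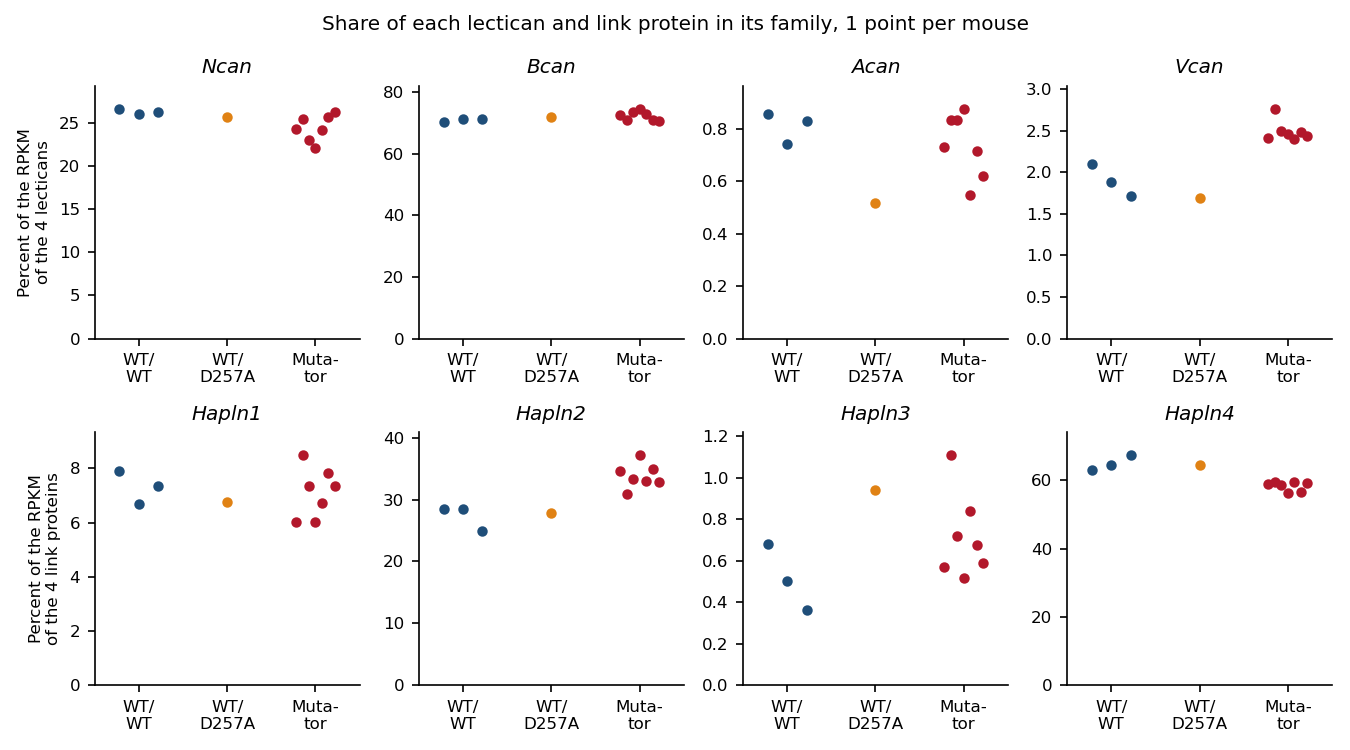
Share (percent, linear axes from 0) of each lectican in the RPKM of the 4 lecticans and of each link protein in the RPKM of the 4 link proteins, 1 point per mouse. The mutators have a lower share of Hapln4 (56.3% to 59.5%) and higher shares of Hapln2 and Vcan than each control, and shares within a family depend on each other.

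In the mouse genome each lectican gene lies next to a link protein gene. In mm9, Ncan and Hapln4 lie end to end on chromosome 8 with 2222 bases between them. Bcan and Hapln2 lie on the same strand of chromosome 3 with 21393 between them. Acan and Hapln3 lie end to end on chromosome 7 with 40, and Vcan and Hapln1 end to end on chromosome 13 with 43477. Within the first pair both genes had lower means in the mutators, with log2 fold changes of -0.43 and -0.22. Within the second the signs differed, -0.31 for Bcan and 0.25 for Hapln2. The third pair had -0.31 for Acan and 0.11 for Hapln3, and the fourth 0.10 for Vcan and -0.083 for Hapln1. The kit did not mark strand. A read of Acan or Hapln3 that lies wholly past their convergent ends can thus be counted on the other gene.

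Mice of one group also differed from each other, and the net genes did not vary as 1 block. With the mean of each arm subtracted, the log2 CPM of Ncan and Bcan had Pearson's r = 0.51 and Spearman's rho = 0.35 over the 11 mice, and r = 0.26 without the 2 mice farthest from the median of Ncan. This value rested on the WT/D257A mouse, without which r was 0.046 with the means taken again, and within the 7 mutators r was 0.027. Ncan and Acan had r = -0.64 and rho = -0.74, and r = -0.38 without 2 mice. Hapln2 and Hapln4, whose log2 fold changes between the groups had opposite signs, had r = 0.70 and rho = 0.72 within them (r = 0.61 without 2 mice). The highest of the 45 pairs was Hapln3 with Tnc (r = 0.83, rho = 0.71, and r = 0.72 without 2 mice), both at low counts and both highest in the WT/D257A mouse among the controls. These values are given with no p, as the points share library depth and composition. Among 11918 genes with at least 5 CPM on average, the 5 whose pattern over the mice was most like that of Ncan were Kbtbd4 (r = 0.92), Numbl (0.90), Abcb6 (0.90), Ankrd43 (0.87) and Crmp1 (0.87), while Bcan came at place 1151. Those 5 had log2 fold changes between -0.16 and 0.0076 and were not called between the groups (edgeR adjusted p from 0.174 to 0.962). They were picked as the highest of 11918 correlations over 11 mice, and whether so high an r exceeds chance was not tested.

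Exon counts, which were given for the 7 mutators and the 3 WT/WT mice, divide each gene into bins at the ends of its annotated exons. How much a bin is used, set against the rest of the gene, does not depend on the level of the gene and was tested. Of the 166 bins of the 10 genes, 128 passed the filter on low counts. None had an adjusted p under 0.05 (edgeR's diffSpliceDGE, lowest adjusted p = 0.999995), where 0.0237% of the 206930 bins tested in all genes did. At an unadjusted p under 0.05 there were 4, beside 1.9% of all bins tested, namely bins 10 and 11 of Ncan, bin 1 of Hapln2 and bin 20 of Tnc, named here after their values were seen. No bin of a net gene was called under any of the 12 alternatives, limma's diffSplice among them.

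The lower level of Ncan was spread along the gene. All 15 bins of Ncan had a lower mean CPM in the mutators than in the WT/WT mice, with log2 ratios from -0.65 to -0.25 and a median of -0.38, and in 14 the groups did not overlap. Among all bins tested, 1.04% had every mutator below every WT/WT mouse. As the level of the whole gene chose the family and is shared by its bins, these counts are a description. All 14 bins of Bcan were lower too, from -0.40 to -0.12 with a median of -0.27, 10 of them with no overlap. The 5 bins of Hapln4 were lower, from -0.39 to -0.20. In Hapln2 none of the 14 bins tested was lower, with log2 ratios from 0.073 to 0.65, the highest in bin 1, which lies in the last exon of 1 annotated transcript (chr3:87825672-87825982). In Tnr, 10 of 23 bins were lower.

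**Figure D5:**
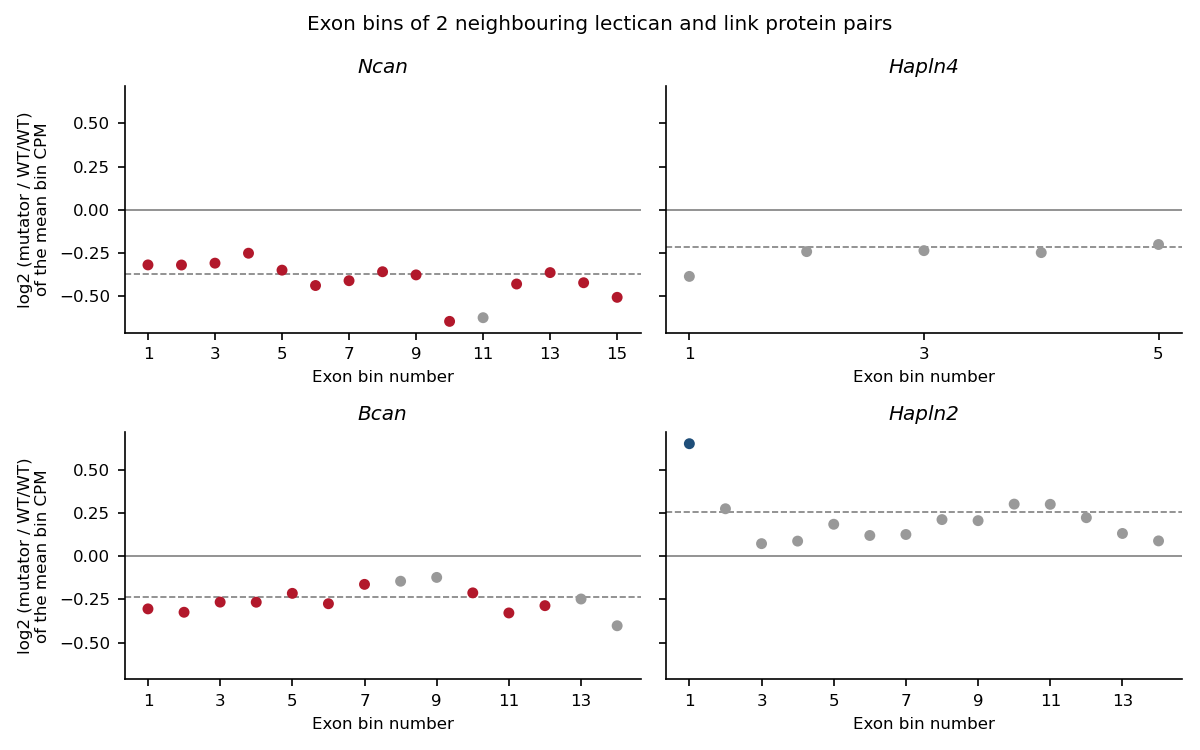
Log2 ratio of the mean bin CPM, mutator over WT/WT, for each exon bin tested of Ncan, Hapln4, Bcan and Hapln2 (x axis, bins numbered along the chromosome), with a dashed line at the log2 fold change of the whole gene against the 3 WT/WT mice. Red bins have all 7 mutators below all 3 WT/WT mice and the blue bin has them all above. Among all bins tested, 1.04% had all mutators below and 1.19% had them all above. Every bin of Ncan and Bcan is under 0.

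The long inner exons of lecticans encode the stretch that carries the chondroitin sulfate chains, and splicing can leave some of them out. In Vcan, 2 long exons do so, called GAG-alpha and GAG-beta, and the form with GAG-alpha alone is the one known for adult brain. The longest inner bin of GAG-alpha (chr13:89842523-89845402) held 20.3% ± 1.3 of the exon counts of Vcan over the 3 WT/WT mice and 21.6% ± 1.3 over the 7 mutators (± SD), and that of GAG-beta (chr13:89830030-89833106), of similar length, held 7.15% ± 0.30 and 7.83% ± 1.3. The longest inner bin of Ncan (chr8:72631340-72632548) held 13.9% ± 0.17 and 13.9% ± 0.38, that of Bcan (chr3:87796977-87797564) 14.7% ± 0.47 and 15.4% ± 0.39, and that of Acan (chr7:86242638-86246120) 36.3% ± 5.2 and 33.3% ± 4.1. By two-sided exact permutation tests of 3 against 7 mice, the p-values were 0.9 for Ncan, 0.0667 for Bcan, 0.35 for Acan, 0.25 for GAG-alpha and 0.5 for GAG-beta, and 0.333 was the lowest after adjustment over the 5. The smallest p that 120 splits allow is 0.00833. Without mutator mouse 236 the difference for Bcan was 0.803 percentage points with an exact permutation p = 0.0238, not adjusted over the 5 bins.

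Around the nets, 105 further genes were listed by function in 5 lists, of which 103 were tested. Among these, 3 fell (Cspg5, Nptx2 and Adamts4) and 1 rose (Gpc3) at the adjusted threshold, where 0.801% of all genes tested were lower and 0.439% higher. At an unadjusted p under 0.05 there were 24 of the 103, beside 2834 of all 17983 genes tested (15.8%). The median log2 fold change of the 103 was -0.050, and 65 had a lower mean in the mutators. Leaving out 1 mouse at a time gave between 1 and 8 calls among them, with 8 without mouse 205, 2 without mice 237, 239 or 248, and 1 without mice 240 or 246.

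Among 20 other brain proteoglycans, Cspg5 fell and Gpc3 rose. Cspg5 encodes neuroglycan C, a transmembrane chondroitin sulfate proteoglycan of brain. It had 229, 239 and 253 CPM in WT/WT mice 205, 239 and 246, 256 CPM in the WT/D257A mouse and 186 to 216 CPM in the mutators, with no overlap. Its log2 fold change of -0.29 (SE 0.046, edgeR adjusted p = 0.00329) was lower in 7 of 7 mutators than the control mean, and it was called under each of the 17 alternatives (highest adjusted p = 0.0289). Gpc3 encodes glypican-3, a heparan sulfate proteoglycan at the cell surface. Its means were 4.97 ± 0.48 CPM over the 4 controls and 6.64 ± 0.66 CPM over the 7 mutators (± SD), for a log2 fold change of 0.41 (SE 0.099, edgeR adjusted p = 0.0457). That call held with mutator mouse 207 left out, and was lost without any 1 of the other 10 mice (edgeR adjusted p from 0.0538 to 0.19).

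Among 25 receptors and ligands of the nets, Nptx2 fell and none rose. It encodes neuronal pentraxin 2, or Narp, which excitatory neurons release onto parvalbumin neurons and which collects in nets. It had 32.2, 45.3 and 37.3 CPM in the WT/WT mice, 33.1 CPM in the WT/D257A mouse and 26.4 to 30.6 CPM in the mutators, with no overlap. Its log2 fold change was -0.36 (SE 0.078, edgeR adjusted p = 0.0255). The call was lost without mouse 239, 240, 246 or 248, with edgeR adjusted p of 0.0927, 0.0602, 0.0786 and 0.0571. Of the 25 genes, 6 had an unadjusted p under 0.05, beside 15.8% of all genes tested. Rtn4rl2 of this list was called by DESeq2, with no filter and with log2 total count as a covariate. It was also called without mouse 205 or 249.

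Among 20 lectican proteases and their inhibitors, Adamts4 fell. It encodes an aggrecanase that cuts lecticans, made in adult brain mostly by oligodendrocytes. It had 36.1, 32.8 and 34.6 CPM in the WT/WT mice, 38.4 CPM in the WT/D257A mouse and 25.2 to 34.3 CPM in the mutators, whose highest value, in mouse 217, overlapped the controls. Its log2 fold change was -0.34 (SE 0.072, edgeR adjusted p = 0.0241). The call was lost without mouse 237, 240 or 246, with edgeR adjusted p of 0.155, 0.0578 and 0.059.

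Of 22 genes for making chondroitin sulfate, none was called by edgeR, 7 (31.8%) had an unadjusted p under 0.05, beside 15.8% of all genes tested, and DESeq2 called 1, Chsy3. In 18 of the 22 (81.8%) the mean was lower in the mutators, beside 49.6% of all genes tested, and the median log2 fold change was -0.11. The lowest p was that of Chsy3, a chondroitin synthase, with means of 12.2 ± 1.2 CPM over the 4 controls and 10.3 ± 0.65 CPM over the 7 mutators (± SD), for a log2 fold change of -0.25 (SE 0.075, edgeR adjusted p = 0.103). Of 16 genes of hyaluronan metabolism and binding, none was called by edgeR, 2 (12.5%) had an unadjusted p under 0.05, beside the same 15.8%, and DESeq2 called 1, Lyve1. Lyve1, a hyaluronan receptor of lymphatic vessels and some macrophages, averaged 0.457 ± 0.147 CPM over the controls and 1.05 ± 0.44 CPM over the mutators, for a log2 fold change of 1.19 (SE 0.32, edgeR adjusted p = 0.0681). It was called without mutator mouse 207 (edgeR adjusted p = 0.0397) or 217 (edgeR adjusted p = 0.029).

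Markers of the cell types that cerebral hemisphere can hold were read beside these values. None of the 12 marker lists had a gene at 0 in every mouse. In 9 of them, with 75 genes tested, no gene was called by edgeR, 23 had an unadjusted p under 0.05, beside 15.8% of all genes tested, and DESeq2 called 9. These were the lists for astrocytes, oligodendrocyte precursors, parvalbumin interneurons, excitatory neurons, microglia, endothelial cells, meningeal fibroblasts, choroid plexus and red blood cells. The 10 astrocyte markers summed to 5061 to 5355 CPM in the controls and 4758 to 5186 in the mutators. Of these 10, 6 had lower means in the mutators, 3 had an unadjusted p under 0.05, and DESeq2 called 2, Gjb6 and Slc1a2. The 9 parvalbumin interneuron markers summed to 1477 to 1557 CPM in the controls and 1418 to 1598 in the mutators. Pvalb, the marker of neurons with nets, had 46.4 ± 7.3 CPM in the controls and 44.7 ± 6.6 in the mutators (log2 fold change -0.047, SE 0.12, edgeR adjusted p = 0.89). Of the 9 parvalbumin interneuron markers, 6 had lower means in the mutators and 3 had an unadjusted p under 0.05. In 2 of the 9 every mutator lay below every control, beside 1.42% of all genes tested. DESeq2 called 1 of the 9, Kcnc2. The 9 excitatory neuron markers summed to 4468 to 5525 CPM in the controls and 4021 to 4848 in the mutators. Means were lower in the mutators for 8 of the 9, beside 49.6% of all genes tested. Of these 9, 3 had an unadjusted p under 0.05, and DESeq2 called 1, Nrgn. The 10 microglia markers, with 387 to 482 CPM and 369 to 451, all had lower means. Of these 10, 4 had an unadjusted p under 0.05, and DESeq2 called none.

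The 6 oligodendrocyte precursor markers summed to 152 to 163 CPM in the controls and 133 to 161 in the mutators. Of these 6, 5 had lower means in the mutators, 2 had an unadjusted p under 0.05, and DESeq2 called 1, Neu4. Of the 10 oligodendrocyte markers, whose sum was 5276 to 5999 CPM in the controls and 5149 to 7164 in the mutators, Opalin, a protein of myelin, fell from 22.9 ± 0.56 to 13.0 ± 3.2 CPM (log2 fold change -0.81, SE 0.16, edgeR adjusted p = 0.0385), while Mbp, the myelin basic protein, had a log2 fold change of 0.13 (SE 0.075, edgeR adjusted p = 0.434). Of the 8 striatal and 5 thalamic neuron markers, which depend on how the hemisphere was cut, Adora2a and Ramp3 fell (log2 fold changes -0.35 and -0.33, edgeR adjusted p = 0.0376 and 0.0375). The striatal list summed to 818 to 988 CPM and 697 to 855, and the thalamic one to 263 to 286 and 269 to 303. The oligodendrocyte markers had a median log2 fold change of -0.16, and 6 of the 10 had lower means in the mutators. At an unadjusted p under 0.05 there were 5 of the 10 oligodendrocyte, 3 of the 8 striatal and 3 of the 5 thalamic markers. The share over all genes tested was 15.8%. DESeq2 called 2 in each list, with Mag, Penk and Tnnt1 beside the 3 genes called by edgeR. The edgeR calls of Opalin, Adora2a and Ramp3 were each lost without at least 7 of the mice taken one at a time. With all 11 mice, that of Opalin was also lost with no filter on low counts and with log2 total count as a covariate. The edgeR adjusted p was highest without the WT/D257A mouse, at 0.169 for Opalin, 0.19 for Adora2a and 0.215 for Ramp3. The part of cell composition and of dissection in the values of the net genes was not tested.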

How the data were processed

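Poly(A)+ RNA of 11 cerebral hemispheres was sequenced as paired ends with a kit that does not mark strand. The authors used TopHat2 2.0.6 for alignment to mm9 and HTSeq 0.5.3p9 for counting on Ensembl genes, and deposited raw counts per gene and, for 10 mice, raw counts per exon bin. These versions are from the submitters' processing notes. The authors' DESeq 1.14.0 and DEXSeq tables of fold changes and adjusted p-values, and a table of read totals, were not used here. Counts assigned to no exon bin, for whatever reason, were left out. They made up 20.6% to 23.4% of all counts of a mouse, which is not a share of reads. Gene totals were 28249345 to 121182250 per mouse, so genes under 1 CPM rest on few reads.

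Gene counts went into the quasi-likelihood test of edgeR 4.0.16 (R 4.3.3) with the filterByExpr filter, TMM factors and a robust fit, for 7 mutators against 4 controls, and exon bins into diffSpliceDGE (7 against 3 WT/WT), with Benjamini-Hochberg adjustment over all genes or bins and a threshold of 0.05. RPKM used the exons of the mm9 annotation (Ensembl 65). Its bins matched the files in number for all 10 genes. Correlations used log2 CPM with a prior count of 2. Alternatives were RLE and upper-quartile scaling, no filter on low counts, a filter on a mean count of 10, DESeq2 1.42.0, log2 total count as a covariate, each mouse left out in turn, and limma 3.58.1 for bins. The fits were tested on simulated data with known changes. Those were larger than any log2 fold change of the net genes and were set in genes above a minimum level. Smaller changes and low genes were not covered.

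The 10 genes, the 5 pathway lists and the 12 marker lists were chosen with earlier results of these data known. Besides the 10 genes, the genes named are those called in a list, otherwise the one with the lowest p, and the 5 most like Ncan. Pvalb, Mbp and Polg were added as reference genes. Promoters came from a RefSeq table (GRCm38.p6), which was matched by symbol for 9 of the 10 genes. Mice are separate animals. The libraries were run in multiplexed pools, and as the sources used here do not say which mouse was in which pool, no pool entered the fits.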

Additional observations from a re-analysis of the deposited data

Results flagged for a closer look

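Of 59 groups of 4 or 7 mice examined for a value far from the rest, over all genes named, 5 had one (chance flags about 1 in 20 such groups, 2.95 of 59). In 4 of the 5, the value was that of the WT/D257A mouse among the controls. In the controls, Ncan was highest in the WT/D257A mouse 237, at 203 CPM against 173 to 178 in the others, a gap of 0.842 of the range. Crmp1, one of the genes most like Ncan, was highest in the same mouse, at 184 CPM against 173 to 174, a gap of 0.907 of the range. The same mouse was highest for Adora2a, at 55.1 CPM against 40.7 to 42.0 (0.907 of the range), and for Opalin, at 23.7 CPM against 22.5 to 22.7 (0.872 of the range). In the mutators, Hapln3 was highest in mouse 211, at 2.02 CPM against 1.16 to 1.52, a gap of 0.579 of the range. The cause was not tested.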

How the results depend on the processing

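The number of net genes called was 2, 3 with no filter or with DESeq2, and 1 to 3 with 1 mouse left out. In the 5 pathway lists 4 genes were called, 7 with DESeq2 and 1 to 8 with 1 mouse left out. Over all genes, 223 were called, 346 with no filter, 615 with DESeq2 and 50 to 412 with 1 mouse left out, the fewest without the WT/D257A mouse. The share of Ncan in its longest inner bin differed by -0.0063 percentage points, and by -0.13 to 0.0921 with 1 mouse left out. For Bcan the difference was 0.714 points, and 0.445 to 0.856 with 1 mouse left out (0.803 without mouse 236, where the unadjusted exact permutation p was 0.0238). With 1 mouse left out the log2 fold change of Hapln3 ranged from -0.024 to 0.37, the highest without mouse 237, and that of Tnr from -0.063 to 0.054. With no mean subtracted, r between Ncan and Acan was 0.33, since both were lower in the mutators. The longest transcript as the length gave Vcan 2.07 RPKM. Of 272 alternative log2 fold changes, 244 kept their direction and their side of the threshold. The causes of the other changes were not tested. No paired analysis was possible because replicate numbers only name the mice. Depth limits Hapln3, with 22 counts in 1 mouse, and the low bins of Acan and Tnc.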
